A study of Sus scrofa with 6 samples.

Results

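The genes of the proteasome were followed through liver, muscle and fat of Korean native and Berkshire pigs (Sus scrofa). Members were all Ensembl pig gene IDs whose symbol starts with PSMA, PSMB, PSMC, PSMD, PSME, PSMF or PSMG. Of 46 such symbols in the supplied name table, 29 matched 1 of the 25322 IDs of the count files, and 24 of these had enough counts to be tested. The other 17 symbols, among them PSMA7, PSMB4, PSMB10, PSMC4, PSMD2, PSMD7 and PSMF1, were not analysed here. The constitutive catalytic subunits PSMB5 and PSMB6 were not analysed here either.

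Messenger RNA was sequenced in 6 libraries, Korean native liver, Berkshire liver, Korean native muscle, Berkshire muscle, Korean native fat and Berkshire fat, with 1 library for each breed and tissue. The labels name no treatment, genotype, age or sex. Nor do they tell whether 1 animal gave all 3 tissues of its breed, so p-values measure only the spread among these libraries. With 1 library for each breed and tissue, that spread is the departure from additive effects of tissue and breed, not variation between replicates. In such bulk tissue, fewer cells of a type and less RNA per cell cannot be told apart.

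The proteasome degrades proteins that carry chains of ubiquitin. Its barrel-shaped core is built from alpha rings (PSMA genes), which gate the entrance, and beta rings (PSMB genes), some of which cut peptide bonds. A regulatory particle caps the core. Its base binds the ubiquitin chain and holds ATPases that unfold the substrate (PSMC genes), and its lid removes the chain (most PSMD genes). Other caps, encoded by PSME genes, open the core without ATPases. In skeletal muscle this system breaks down contractile proteins, and in immune cells and under interferon it makes peptides for antigen presentation.

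A library held between 5897407 and 7912093 counts on genes, of which the 29 members took 0.128% to 0.212%. The members gathered 8136 to 14153 counts per library. Levels below are CPM, counts scaled to library size with TMM factors. The tissue labels were checked by marker genes. Summed hepatocyte markers stood at 232700 and 196900 CPM in Korean native and Berkshire liver and at or under 59.97 CPM elsewhere. Summed skeletal muscle markers stood at 123200 and 76210 CPM in Korean native and Berkshire muscle and at or under 34.21 CPM elsewhere. Summed adipocyte markers stood at 10490 and 10710 CPM in Korean native and Berkshire fat, and between 247.3 and 819.1 CPM elsewhere.

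The first comparison asked how proteasome genes differ between tissues. Few of them did so beyond the spread between libraries, and 3 of the 5 that did encode alternative caps. PSME1 rose in liver against fat and muscle, PSME2 rose in liver against muscle, and PSME4 and PSMD11 rose in muscle against fat. PSME4, PSMD11 and PSMD4 fell in liver against muscle. Against fat, 1 of the 24 tested members was called in liver (4.17%) while 28.7% of all 13810 tested genes were, by edgeR's quasi-likelihood test at an adjusted p under 0.05. Of all genes 15.2% rose and 13.5% fell in that comparison. In muscle against fat 2 of 24 were called (8.33%, against 16.4% of all genes, of which 9.95% rose and 6.43% fell). In liver against muscle 5 of 24 were called (20.8%, against 35.9% of all genes). Of these 2 rose and 3 fell, where 18.6% of all genes rose and 17.4% fell. Each share of members lay below that of all genes.

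**Figure D1:**
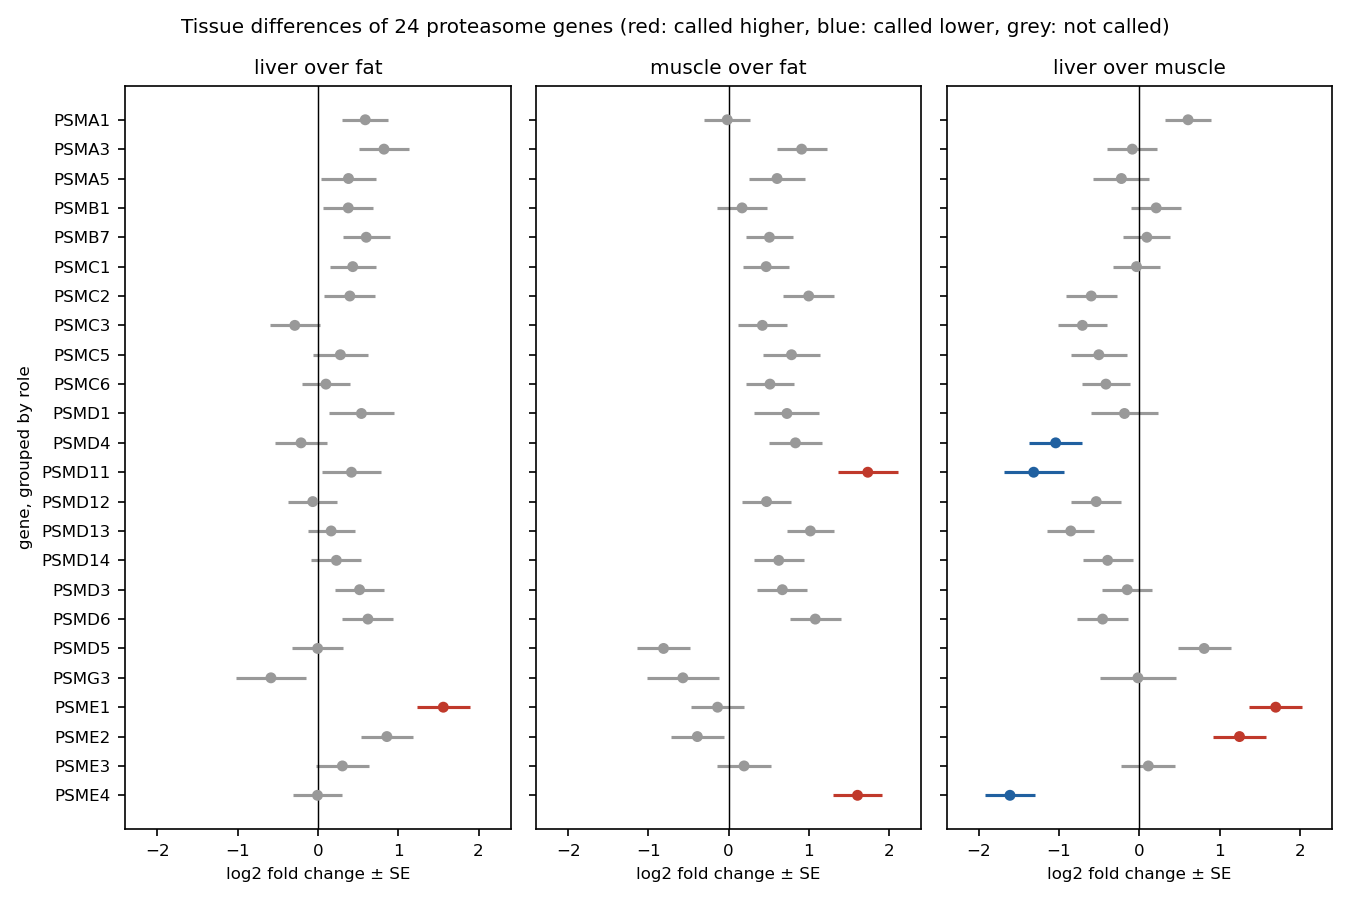
Each point is the log2 fold change of 1 of 24 proteasome genes in 1 tissue comparison, with a bar of 1 SE to each side, grouped from alpha ring (top) to activators (bottom). PSME1, at 1.56 in liver over fat and 1.70 in liver over muscle, and PSME4, at 1.61 in muscle over fat and -1.61 in liver over muscle, stand apart from most other members; with total-count scaling every value against fat would lie about 1 unit lower.

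Most members had a positive fold change against fat, although few passed the test. The log2 fold change was above 0 in 18 of 24 members in liver over fat (median 0.38, all tested genes 0.06) and in 19 of 24 in muscle over fat (median 0.56, all genes -0.05). Over all genes 52.6% and 48% of the values were above 0. With total counts 1 and 5 of 24 members were above 0 and the medians turned to -0.64 and -0.38, while the median of all genes moved to -0.94 and -0.98. The distance of the member median from the median of all genes was 0.32 and 0.61 with TMM factors, and 0.31 and 0.60 with total counts. In liver over muscle the median was -0.20, with 7 of 24 values above 0. When 1 library was left out, this median ranged from -0.57 (without Berkshire muscle) to 0.02 (without Korean native muscle, 12 of 24 above 0). Both liver libraries lay above both fat libraries in 14 of 24 members (58.3%, against 37.3% of all genes). Both muscle libraries lay above both fat libraries also in 14 (58.3%, against 30.6% of all genes), and above both liver libraries in 9 (37.5%, against 34.2%). Both liver libraries lay above both muscle libraries in 4 (16.7%, against 34.4%). Both fat libraries lay above both liver libraries in 3 members (12.5%, against 32.9%) and above both muscle libraries in 3 (12.5%, against 32.6%). These orders against fat also depend on the scaling.

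**Figure D2:**
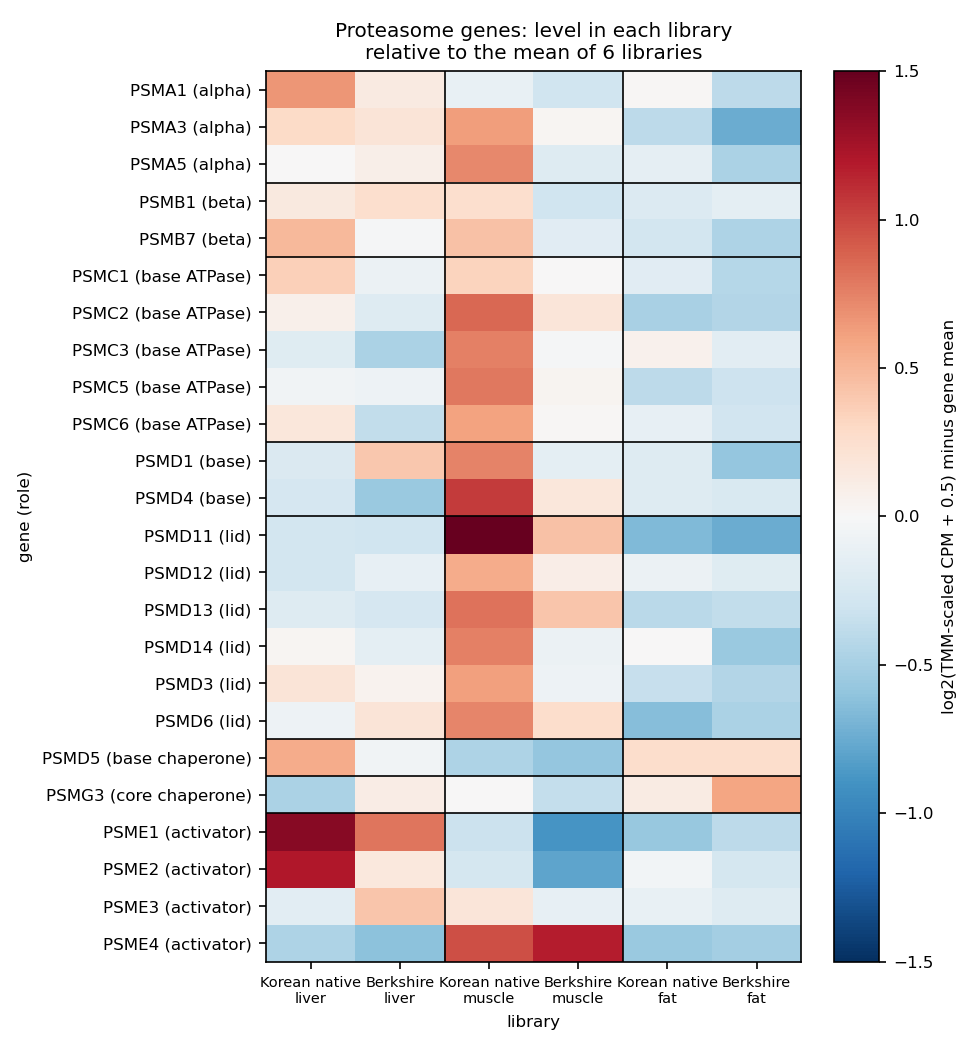
Colour shows the level of each of 24 proteasome genes (rows, by role) in each library (columns) relative to the mean of that gene over 6 libraries, on the log2 scale of TMM-scaled CPM. Korean native muscle was the highest library for 15 of 24 genes, and PSME1 and PSME2 were highest in Korean native liver.

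The measured alpha ring genes were PSMA1, PSMA3 and PSMA5, and none of them was called in a tissue comparison by edgeR with TMM factors. With total counts PSMA1 was called lower in muscle against fat (log2 -0.945). PSMA1 had 98.8 and 68.2 CPM in Korean native and Berkshire liver, 57.4 and 50.5 CPM in muscle, and 63.1 and 47.3 CPM in fat. PSMA3 had 174.8 and 164.5 CPM in Korean native and Berkshire liver, 221.4 and 146.4 CPM in muscle, and 109.0 and 85.0 CPM in fat. All liver and muscle values of PSMA3 thus lay above those of fat, while muscle and fat values of PSMA1 overlapped. The log2 fold change of PSMA3 was 0.82 ± 0.31 (SE) in liver over fat and 0.91 ± 0.31 in muscle over fat, with edgeR adjusted p of 0.092 and 0.089. That of PSMA1 was 0.59 ± 0.29 and -0.02 ± 0.29 in the same comparisons. The beta ring was represented by PSMB1 and PSMB7. PSMB7, a precursor of the trypsin-like catalytic subunit, had 114.2 and 80.2 CPM in Korean native and Berkshire liver, 110.9 and 72.3 CPM in muscle, and 67.3 and 58.8 CPM in fat. Liver and muscle libraries of PSMB7 lay above those of fat. PSMB1 averaged 66.2 ± 3.41, 57.8 ± 15.8 and 51.0 ± 1.56 CPM in liver, muscle and fat (SD, n = 2 each), and no beta ring gene was called in edgeR.

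Base and lid genes leaned toward muscle in the fit of all 6 libraries. All 13 of them had a positive log2 fold change in muscle over fat, between 0.42 for PSMC3 and 1.73 for PSMD11, and all 13 a negative one in liver over muscle, between -0.04 for PSMC1 and -1.32 for PSMD11. By edgeR with TMM factors PSMD11 passed in the first comparison, and PSMD11 and PSMD4 in the second. In the second, DESeq2, limma-voom and total counts called PSMD13 too. With total counts the values against fat were above 0 for PSMC2, PSMD6, PSMD11 and PSMD13 and below 0 for the others. The median over the 5 base ATPases was 0.52 in muscle over fat and 0.28 in liver over fat, and that over the 6 lid genes was 0.84 and 0.32. For the 5 ring genes of the core, values lay between -0.02 and 0.91 in muscle over fat and between 0.38 and 0.82 in liver over fat. The difference between core and regulatory particle was not tested. In Berkshire, PSMD1 (36.1 CPM in muscle, 53.0 CPM in liver) and PSMD3 (79.6 and 87.6 CPM) were lower in muscle than in liver. In Korean native libraries PSMC1 was lower in muscle (133.3 and 135.2 CPM). The other base and lid genes were higher in muscle than in liver in both breeds.

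PSMD11 encodes a lid subunit that helps to hold the assembled proteasome together. It had 66.6 and 65.6 CPM in Korean native and Berkshire liver, 235.7 and 110.2 CPM in muscle, and 51.1 and 48.2 CPM in fat. Both muscle libraries exceeded all others, and they were also far apart from each other. PSMD11 rose in muscle against fat with a log2 fold change of 1.73 ± 0.38 (SE, edgeR adjusted p 0.025), and it fell in liver against muscle at -1.32 ± 0.37 (adjusted p 0.031). The call against fat was lost without Korean native muscle (log2 1.18), Korean native fat (1.49) or Berkshire fat (1.97) and with total counts (0.79). The call against muscle was lost without Korean native muscle (-0.77), Korean native liver (-1.03) or Berkshire liver (-1.60).

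PSMD4, the ubiquitin receptor of the base, had 64.8 and 52.4 CPM in Korean native and Berkshire liver, 161.0 and 87.1 CPM in muscle, and 67.7 and 66.1 CPM in fat. Muscle values did not overlap with those of liver or fat. PSMD4 fell in liver against muscle (log2 -1.04 ± 0.33, edgeR adjusted p 0.046). That call held without Berkshire muscle but was lost when any other library was left out (log2 between -0.67 and -1.12) and without the breed term (-1.08). Further lid genes came close in muscle over fat. PSMD13 averaged 96.1 ± 19.1 CPM in muscle and 47.1 ± 0.886 CPM in fat (SD, n = 2 each), with a log2 fold change of 1.02 ± 0.30 (SE, adjusted p 0.058). PSMD6 averaged 63.1 ± 14.2 and 29.8 ± 2.43 CPM in muscle and fat, with 1.08 ± 0.32 (adjusted p 0.062). DESeq2 and limma-voom called both of these.

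Of the 4 activator genes, 3 were called between tissues, and not in the same direction. PSME1 and PSME2 encode the subunits of an interferon-inducible cap that is linked to antigen processing. PSME1 had 165.2 and 111.4 CPM in Korean native and Berkshire liver, 51.0 and 34.2 CPM in muscle, and 42.9 and 48.3 CPM in fat. Each liver library was higher than every muscle and fat library, and muscle and fat overlapped. PSME1 rose in liver against fat by a log2 fold change of 1.56 ± 0.33 (SE, edgeR adjusted p 0.013) and against muscle by 1.70 ± 0.33 (adjusted p 0.0076). The call against fat was lost without Korean native fat (log2 1.202) or Korean native liver (1.38) and with total counts (0.56), and the call against muscle without Korean native liver (1.497).

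PSME2 had 75.9 and 36.4 CPM in Korean native and Berkshire liver, 27.0 and 18.7 CPM in muscle, and 31.6 and 27.0 CPM in fat. The liver libraries were again the highest, but the Berkshire one lay close to fat. PSME2 rose in liver against muscle (log2 1.25 ± 0.33, edgeR adjusted p 0.025), and its value in liver over fat was 0.86 ± 0.33 (adjusted p 0.093). The call was lost without Korean native liver (0.88), Korean native muscle (1.19) or Berkshire muscle (1.30).

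PSME1 and PSME2 lie close together in the RefSeq annotation of Sscrofa11.1, with EMC9, a subunit gene of a membrane protein insertion complex, between them and overlapping PSME1. This is not the build of the counts. EMC9 had 175.0 and 119.6 CPM in Korean native and Berkshire liver, 98.5 and 55.5 CPM in muscle, and 57.4 and 57.3 CPM in fat, so it too was highest in liver. Reads of overlapping genes cannot be told apart when the strand setting is unknown, and the level of PSME1 is uncertain to that extent. The same holds for PSMA3, PSMC1, PSMC5, PSMD1, PSMD6 and PSMD14, which also overlap another gene in that annotation, so that 7 of the 24 tested members do.

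Markers of leukocytes also had their highest sums in liver. Summed over 11 matched of 15 listed genes they reached 494.8 and 635.6 CPM in Korean native and Berkshire liver, 58.1 and 108.2 CPM in muscle, and 307.6 and 194.6 CPM in fat. Of 10 tested, 8 rose in liver against muscle and 4 against fat, while 18.6% and 15.2% of all genes rose. The other 6 had log2 fold changes against fat from -1.05 upward and were not called. CD14 alone held 180.3 and 248.3 CPM of the sums in Korean native and Berkshire liver. CSF1R (84.6 CPM), ITGAM (17.1 CPM) and TYROBP (18.7 CPM) were highest in Korean native fat. The part of leukocytes in the level of PSME1 and PSME2 was not tested.

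PSME4 encodes a large single-chain cap that is found in the nucleus. It had 99.9 and 89.4 CPM in Korean native and Berkshire liver, 268.7 and 310.6 CPM in muscle, and 93.5 and 96.9 CPM in fat. The muscle libraries stood far above the other 4, which lay within a narrow range. PSME4 rose in muscle against fat (log2 1.61 ± 0.31, edgeR adjusted p 0.017) and fell in liver against muscle (-1.61 ± 0.31, adjusted p 0.0073). The first call was lost without Korean native fat (1.596), Berkshire fat (1.62) or with total counts (0.68), and the second without Berkshire liver (-1.47). PSME3, the gene of a nuclear cap related to PSME1 and PSME2, was not called in any comparison. It had 24.9 and 37.4 CPM in Korean native and Berkshire liver, 31.6 and 25.6 CPM in muscle, and 25.7 and 24.4 CPM in fat, so the tissues overlapped.

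**Figure D3:**
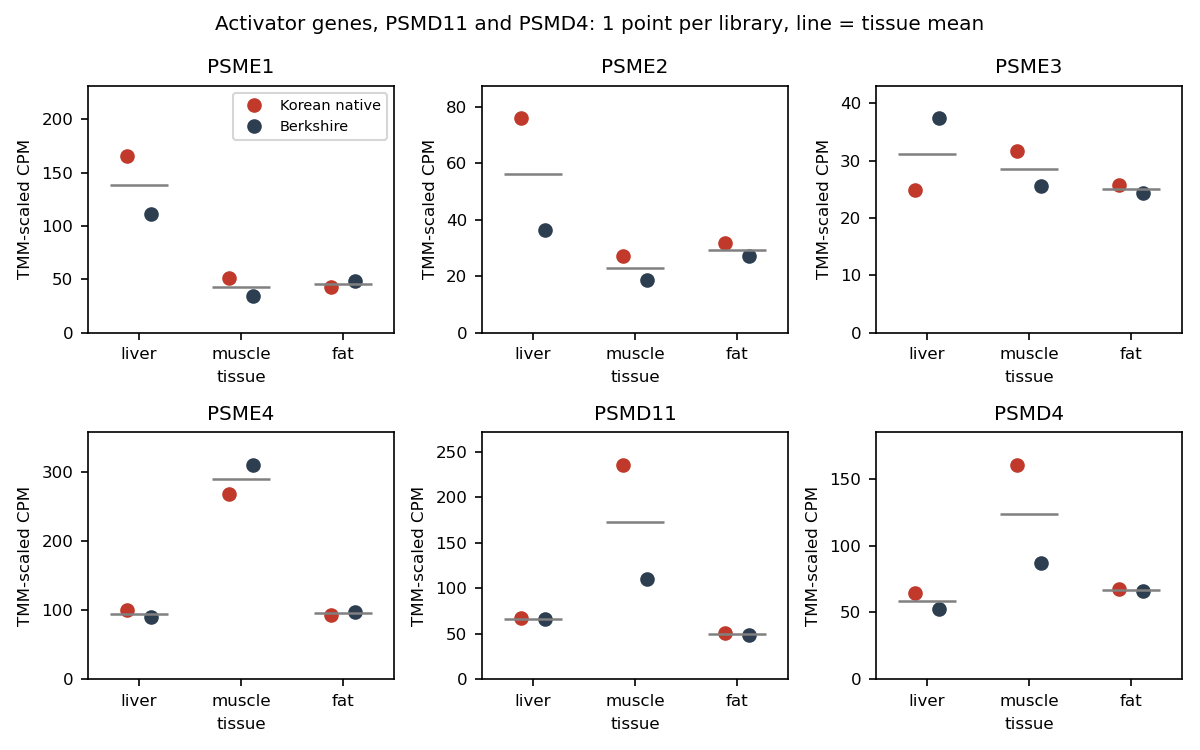
TMM-scaled CPM of the 4 activator genes and of PSMD11 and PSMD4 in liver, muscle and fat, with 1 point per library (Korean native left, Berkshire right) and a line at the tissue mean. PSME1 lay between 111.4 and 165.2 CPM in liver and at or under 51.0 CPM elsewhere, and PSME4 between 268.7 and 310.6 CPM in muscle and at or under 99.9 CPM elsewhere.

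Shares of the counts on the 24 members do not depend on how libraries are scaled. PSME4 took 5.33% of them in Korean native liver and 5.50% in Berkshire liver. Its shares were 10.01% and 16.8% for Korean native and Berkshire muscle, and 6.70% and 7.52% for fat. PSME1 took 8.81% and 6.86% in Korean native and Berkshire liver, with 1.90% and 1.85% for muscle and 3.08% and 3.75% for fat. The muscle and liver intervals of both genes were far apart, for PSME4 from 9.47% to 10.6% in Korean native muscle and from 5.03% to 6.02% in Berkshire liver (95% Wilson intervals, counting error only). PSME4 had 0.605 and 0.802 counts per count of PSME1 in Korean native and Berkshire liver, with 5.27 and 9.07 for muscle and 2.18 and 2.01 for fat. These ratios compare libraries and are not ratios of molecules, since the genes differ in length.

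**Figure D4:**
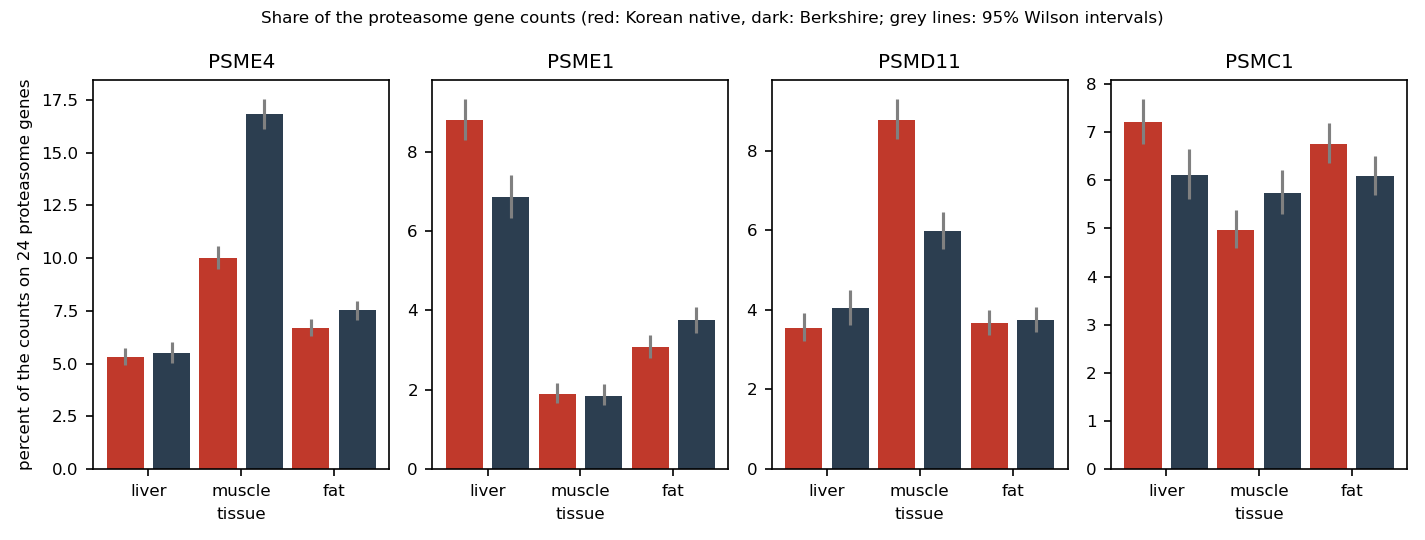
Bars give the percentage of the counts on 24 proteasome genes that fell on PSME4, PSME1, PSMD11 and PSMC1 in each library (Korean native left of Berkshire in each tissue), with 95% Wilson intervals. PSME4 reached 10.01% and 16.8% in muscle and PSME1 8.81% and 6.86% in liver, while PSMC1, a base ATPase chosen after its values were seen, kept between 4.96% and 7.21% in all libraries.

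The assembly chaperones PSMD5 and PSMG3 gave no call in edgeR with TMM factors, but with total counts both were called lower in liver against fat (log2 -1.01 and -1.597) and in muscle against fat (-1.74 and -1.505). PSMD5, which holds base subunits before they join, had 24.2 and 15.8 CPM in Korean native and Berkshire liver, 11.8 and 10.8 CPM in muscle, and 19.7 and 19.8 CPM in fat. Both muscle libraries were lower than the other 4. The log2 fold change was -0.81 ± 0.33 in muscle over fat and 0.81 ± 0.33 in liver over muscle, with edgeR adjusted p of 0.13 and 0.099. PSMG3, a chaperone of the alpha ring, had the fewest counts of the tested members and lay between 3.15 and 7.15 CPM in the 6 libraries, with overlapping tissues.

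The immune subunits PSMB8 and PSMB9 were almost without counts, and the immune subunit PSMB10 was not analysed here. PSMB8, which replaces a catalytic subunit under interferon, had 0 counts in all 6 libraries. PSMB9, its partner, had 1 and 3 counts in Korean native and Berkshire liver, 0 in both muscle libraries and 3 in each fat library. A count of 0 allows a level of up to 0.294 to 0.692 CPM in a library, the value of 3 counts. The antigen peptide transporter genes TAP1 and TAP2, which flank PSMB8 in the RefSeq annotation of Sscrofa11.1, had 0 counts throughout and 1 to 13 counts. Genes on both sides of this block had more counts. Beyond TAP2, SLA-DQB1 had 43.6 and 37.2 CPM in Korean native and Berkshire liver, 21.0 and 19.95 CPM in muscle, and 32.8 and 52.0 CPM in fat. On the PSMB9 side, BRD2 had 392.4 and 422.3 CPM in Korean native and Berkshire liver, 329.2 and 352.0 CPM in muscle, and 305.8 and 282.9 CPM in fat. SLA-DMB, which helps to load peptides on class II molecules, had 25.02 and 22.2 CPM in Korean native and Berkshire liver, 7.84 and 10.25 CPM in muscle, and 23.4 and 22.0 CPM in fat. Of the reads of a library, 14.1% to 20.8% had no unique alignment and 45.9% to 52.5% fell on no annotated feature. Reads of both kinds were not given to a gene. Whether reads of the block were among them was not tested, so the near-absence is one of counts on these IDs.

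The germ cell subunit PSMA8 and the thymic subunit PSMB11 also had 0 counts in all 6 libraries. PSMC3IP, which shares the prefix but is a meiotic recombination factor and not a subunit, had 7 counts in each liver library, 1 in each muscle library, and 6 and 8 in Korean native and Berkshire fat. These 5 genes were not tested.

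The second comparison asked whether proteasome genes differed by breed across liver, muscle and fat. None of the 24 members passed edgeR's test (0.109% of all genes did, 0.029% higher and 0.0797% lower in Korean native libraries). None had an unadjusted p under 0.05, while 1103 of all genes had, and neither DESeq2 nor limma-voom called any (0 and 1 had an unadjusted p under 0.05). The log2 difference was above 0 in 21 of 24 members, or in 17 of 24 with total counts, and in 52.4% of all genes. It lay between -0.28 for PSMG3 and 0.61 for PSME2, with a median of 0.32 (all genes 0.02). All 18 genes of rings, base and lid had values above 0. The largest were PSME2, at 0.61 ± 0.27 (SE, adjusted p 0.64), and PSMD14, the lid enzyme that cuts off the ubiquitin chain, at 0.53 ± 0.25 (adjusted p 0.67).

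The median of this difference depended on the muscle libraries. Without Korean native muscle it was 0.12, and without Berkshire muscle 0.13. Within muscle, 22 of 23 members that reached 5 CPM were higher in the Korean native library (median log2 ratio 0.58, all genes 0.05). PSME4 was the exception at -0.21. With total counts 20 of 24 members were higher in muscle (median 0.26), 15 of 24 in liver (0.10) and 12 of 24 in fat (0.00). Higher values were seen for 17 of 24 in liver (median 0.15, all genes 0.00) and for 15 of 24 in fat (median 0.09, all genes 0.02). Each tissue has 1 library per breed, so none of these ratios has a replicate check.

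The muscle libraries also differed in other markers. Summed skeletal muscle markers were 123200 CPM in the Korean native library and 76210 CPM in the Berkshire one, and summed adipocyte markers 362.1 and 819.1 CPM. The TMM factors of these libraries were 0.736 and 0.914. The part of these differences in the ratios of the proteasome genes was not tested.

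At least 2-fold ratios were rare among members. In liver it was PSME2 alone, 2.08-fold higher in the Korean native library (counting interval 1.75 to 2.49), among 24 members, where 12% of all genes were that far apart and 6.18% were higher. In muscle it was PSMD11 alone, 2.14-fold higher (1.93 to 2.37), among 23 members, against 20.9% of all genes (10.7% higher), and with total counts no member reached this ratio. In fat no member did, against 8.38% of all genes (4.68% higher), and the widest was PSMD14 at 36.7 CPM in the Korean native library and 24.6 CPM in the Berkshire one. PSMA5 followed in muscle, with 45.9 CPM in the Korean native library and 24.2 CPM in the Berkshire one.

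**Figure D5:**
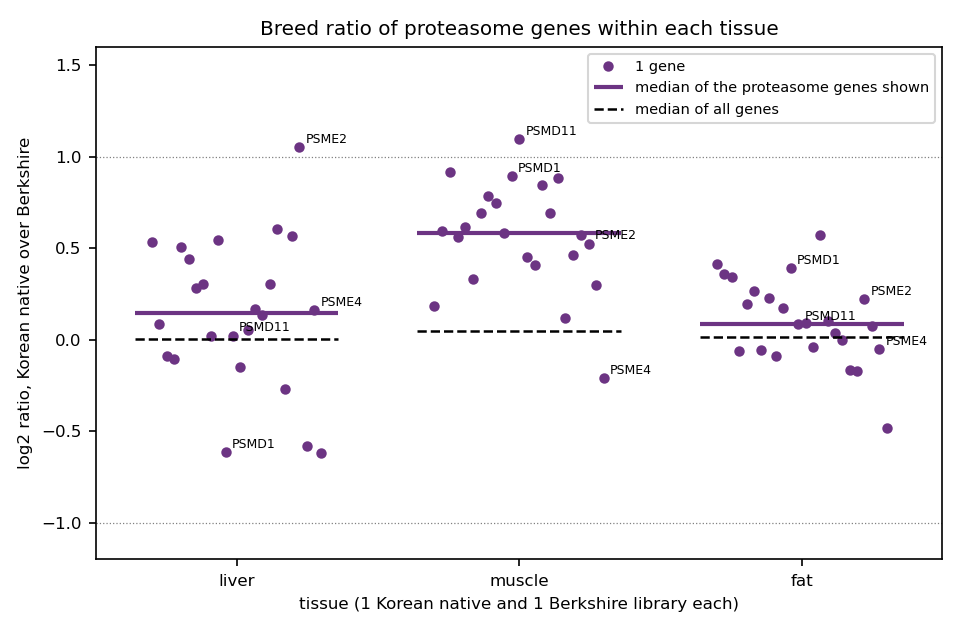
Each point is the log2 ratio of the Korean native over the Berkshire library for 1 proteasome gene within a tissue, in alphabetical order from left to right, with the medians of the members (line) and of all genes (dashed line); dotted lines mark 2-fold. Member medians were 0.15 (liver), 0.58 (muscle) and 0.09 (fat) with TMM factors, and 0.26 in muscle with total counts.

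Other genes of the ubiquitin system were taken from lists of 42 symbols, of which 33 matched an ID and 31 were tested. In liver against fat 7 rose and 2 fell, in muscle against fat 7 rose, and in liver against muscle 6 rose and 11 fell, while none was called between breeds in edgeR. These counts stand beside 28.7%, 16.4% and 35.9% of all genes called in the same tissue comparisons. Thus the 9 of 31 called in liver against fat are a share near that of all genes. The 7 of 31 that rose in muscle against fat are a larger share than the 9.95% of all genes that rose. In liver against muscle 18.6% of all genes rose and 17.4% fell. The 6 of 31 that rose there are a share near that, and the 11 of 31 that fell are a larger one. The lists as sets were not tested. Of 7 proteasome-bound factors, 3 rose in muscle against fat and 1 of these also in liver against fat. ECPAS, a scaffold that binds the proteasome, had 130.9 and 119.4 CPM in Korean native and Berkshire liver, 822.3 and 458.9 CPM in muscle, and 83.8 and 113.1 CPM in fat. It rose in muscle against fat (log2 2.66 ± 0.42, edgeR adjusted p 0.0083). ZFAND5, a stimulator of proteasome activity, had 22.7 and 32.4 CPM in Korean native and Berkshire liver, 131.0 and 211.4 CPM in muscle, and 19.3 and 37.4 CPM in fat (2.62 ± 0.31, adjusted p 0.0024). Muscle libraries of both genes stood above all others.

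Of the ubiquitin shuttles, RAD23B rose in muscle against fat, RAD23B and UBQLN1 rose in liver against fat, and UBQLN1 also rose in liver against muscle. UBQLN1 had 476.1 and 365.3 CPM in Korean native and Berkshire liver, 172.3 and 120.1 CPM in muscle, and 127.3 and 117.1 CPM in fat. The muscle ubiquitin ligases TRIM63 and FBXO32 rose in muscle against fat. FBXO30, also on that list, was not called there (log2 0.72 ± 0.31, edgeR adjusted p 0.15). TRIM63, which tags myofibrillar proteins, had 182.7 and 434.3 CPM in Korean native and Berkshire muscle, and 0.690 and 1.76 CPM in fat. It thus had the lower of the 2 muscle values in the Korean native library, as did FBXO32 with 64.1 CPM against 101.8 CPM in the Berkshire one, whereas 22 of 23 proteasome genes had the higher value there.

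NFE2L1, a transcription factor that drives proteasome genes when proteasome activity is low, fell in liver against fat (log2 -1.11 ± 0.33, edgeR adjusted p 0.042) and against muscle (-1.37 ± 0.33, adjusted p 0.017). It had 46.2 and 48.4 CPM in Korean native and Berkshire liver, 147.9 and 99.6 CPM in muscle, and 96.1 and 107.4 CPM in fat. The ubiquitin gene UBB and the activating enzymes UBA1 and UBA6 were not called in any tissue comparison by edgeR. In the antigen presentation list, 4 of 6 tested genes rose in liver against fat and 5 of 6 against muscle. Among them were PDIA3 and CALR, general chaperones of the endoplasmic reticulum. Of all genes 15.2% and 18.6% rose in these comparisons. TAP1 and TAP2 of this list had too few counts to be tested.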

How the data were processed

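The deposited values were raw read counts per Ensembl gene, which the authors obtained by alignment with TopHat to Sscrofa10.2 and counting with HTSeq 0.5.3p3, according to the submitters' processing notes. For strand setting, counting mode and annotation release nothing was given in the sources. Closing entries of each file name no gene and entered neither library sizes nor tests; 5 of them held 64.7% to 67.4% of a library.

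All 6 libraries were fitted together in edgeR 4.0.16 (R 4.3.3), with tissue and breed as terms, TMM factors and filterByExpr, leaving 2 residual degrees of freedom. Two-sided quasi-likelihood p-values were Benjamini-Hochberg adjusted over 13810 genes. An SE was taken as |log2 fold change| divided by the root of F. Ratios within a tissue used a prior count of 2, a minimum of 5 CPM in the higher library and exact binomial counting intervals. Intervals and floors cover counting error only. Alternatives were DESeq2 1.42.0, limma 3.58.1 (voom), other scalings and minima, no filter, models of 1 term and leaving out each library. The code was tested on simulated counts.

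Values per library were given for those catalytic subunits and immune counterparts that matched an ID, the activators and PSMA8. They were also given for members called among the 5 of smallest p, and members at least 2-fold apart between breeds. PSMA1, PSMA3, PSMA5, PSMC1, PSMD5, PSMD6, PSMD13, PSMD14, the neighbouring genes and the pathway genes given with values were chosen after their values were seen. Members and lists were chosen with earlier results of these data known.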

Additional observations from a re-analysis of the deposited data

Results flagged for a closer look

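PSMD1, the scaffold subunit of the base, had breed ratios that ran opposite ways in 2 tissues. The log2 ratio of the Korean native over the Berkshire library was 0.896 in muscle (67.3 and 36.1 CPM) and -0.617 in liver (34.5 and 53.0 CPM). The difference was not tested, since each ratio rests on 1 library per breed.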

How the results depend on the processing

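No paired analysis was possible because the labels give no replicate numbers and each breed and tissue has 1 library. Breed was a term of the model, however, and without it 1, 2 and 4 members were called in liver over fat, muscle over fat and liver over muscle. The number of members called in liver over fat was 1, and it was 8, all lower in liver, with total counts. In muscle over fat it was 2, against 4 with DESeq2, 4 with limma-voom and 5, all lower in muscle, with total counts. In neither comparison was a member called by both scalings. PSME4 was called lower in liver over fat (-1.015) and PSME1 in muscle over fat (-1.07) with total counts. In liver over fat total counts left 1 of 18 positive values above 0. Among those that turned, PSMC6 and PSMD13 were called, at -0.91 and -0.85 by total counts and 0.10 and 0.16 by TMM factors. Leaving out each library gave 0 to 1 calls in liver over fat, 0 to 3 in muscle over fat and 1 to 5 in liver over muscle, where the full model gave 5. Between breeds there were 0 calls under every alternative. The number of members at least 2-fold apart in muscle was 1, and 0 with total counts. DESeq2 size factors in edgeR and the model without a filter gave the same numbers of calls. Over all genes, total counts called 6955 (1158 higher) in liver over fat and 6020 (765 higher) in muscle over fat, against 3959 (2100 higher) and 2262 (1374 higher) with TMM factors. Between breeds 94 genes were called by DESeq2, 87 without a filter and 0 without the tissue term, against 15. Leaving out a library leaves 1 residual degree of freedom, and its tissue then rests on a single library that is assumed to vary like the others.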
